A study of Mus musculus with 2 samples.

Results

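The miR-143/145 cluster is a pair of mouse microRNAs (miRNAs, short RNAs that silence messenger RNAs by base pairing), and both were taken from the array entries named mmu-miR-143 and mmu-miR-145, 2 of 567 mouse miRNAs measured. Each was read by 2 probes printed 10 times, giving 20 spots per miRNA and array. The samples were total RNA from microvesicles (membrane vesicles shed by cells), hybridised to 1-colour Agilent mouse miRNA arrays. The vesicles came from 3T3-L1 cells (CL-173), a mouse preadipocyte line that had been induced to form adipocytes. One array held vesicles shed over the 48 h from day 8 to day 10, and the other those shed over the 48 h from day 2 to day 4. Both windows had the same treatment, insulin at 10 µg/ml, dexamethasone at 0.25 µM and 3-isobutyl-1-methylxanthine at 0.5 mM in high glucose DMEM with 10% FCS. With 1 array per window no replicate check and no test was possible, precision is limited by the number of arrays, and each error below is the technical spread between spots of an array. Vesicle RNA and serum RNA in the medium cannot be told apart in these values, nor can window, preparation and hybridisation.

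miR-143 and miR-145 are made from a shared transcript and are best known from smooth muscle and other mesenchymal cells, where they favour the contractile state. miR-143 is also known to rise when preadipocytes differentiate, and to promote that step in cultured human preadipocytes, partly through the kinase Erk5 (Mapk7). miR-145 targets the transcription factors Klf4 and Klf5 and the insulin receptor substrate Irs1. The files place the miR-143 probes on chromosome 18 at 61808853 to 61808867 and 61808853 to 61808868, and the miR-145 probes at 61807520 to 61807532 and 61807520 to 61807533; the build of these positions was not stated in the sources used here. By these positions 1319 bases lie between the entries, and the probes of a miRNA differ by 1 base in length. The RefSeq names table of GRCm38.p6 has the gene of miR-143 (Mir143) and that of miR-145 (Mir145a) within the long noncoding RNA gene Carmn, also listed there as Mir143hg.

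The members of the pair stood on different sides of the detection rule used here. The scanner software marked both as detected on both arrays. miR-143 was measured in vesicles of both windows and was brighter at day 8-10, by 1.69-fold after scaling, less than 2-fold. The fold depended on the scaling. It was 1.49 without scaling and 1.19 with the 75th percentile of every mouse probe as the scale. miR-145 gave a weak signal on both arrays that lay under the dimmest probe counted as detected, so no fold is given for it. The passenger strand miR-145*, made from the other side of the miR-145 hairpin, had no spot flagged well above background. No miR-143* entry was analysed here.

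miR-143 was flagged above background on every spot. Its shorter probe, A_54_P2404, had spots from 12.6 to 16.8 in processed intensity at day 8-10, with a median of 15.2, against 7.37 to 13.9 with a median of 9.74 at day 2-4. Its longer probe, A_54_P2405, ran from 22.3 to 27.6 with a median of 24.3 at day 8-10, against 13.4 to 18.4 with a median of 16.9 at day 2-4. Processed intensity is the spot signal on a linear scale after background subtraction by the scanner software, before any scaling between arrays. On the longer probe all 10 spots of day 8-10 lay above all 10 of day 2-4, whereas on the shorter probe the ranges touched and 7 of 10 spots of day 8-10 lay above the highest of day 2-4. All 20 spots carried the software's flag for being well above background at day 8-10, and all 20 did at day 2-4. None was saturated or marked as an outlier.

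The probes of miR-143 gave the same picture. The shorter probe averaged 14.9 ± 1.57 at day 8-10 and 10.1 ± 2.04 at day 2-4 (SD over 10 spots each), and the longer probe averaged 24.5 ± 1.61 at day 8-10 and 16.4 ± 1.42 at day 2-4. The longer probe was thus 1.64 times as bright as the shorter one at day 8-10 (spot SE 0.065) and 1.63 times at day 2-4 (spot SE 0.11), a ratio that the windows shared within the spot error. Before scaling, the log2 difference, day 8-10 minus day 2-4, was 0.57 on the shorter probe and 0.58 on the longer probe.

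The scaling divided each array by the 75th percentile of the 279 probes that both arrays detected, 95.2 at day 8-10 and 108 at day 2-4. After this step the log2 difference was 0.75 on the shorter probe (spot SE 0.10) and 0.77 on the longer probe (spot SE 0.050). Scaled, no spot of day 2-4 reached the lowest spot of day 8-10 on either probe. Over both probes miR-143 had a log2 difference of 0.76 with a spot SE of 0.058, and 2 spot SE on each side span 1.56-fold to 1.84-fold. That range stays under 2-fold and above equality, but it holds no variation between cultures or vesicle preparations.

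**Figure D1:**
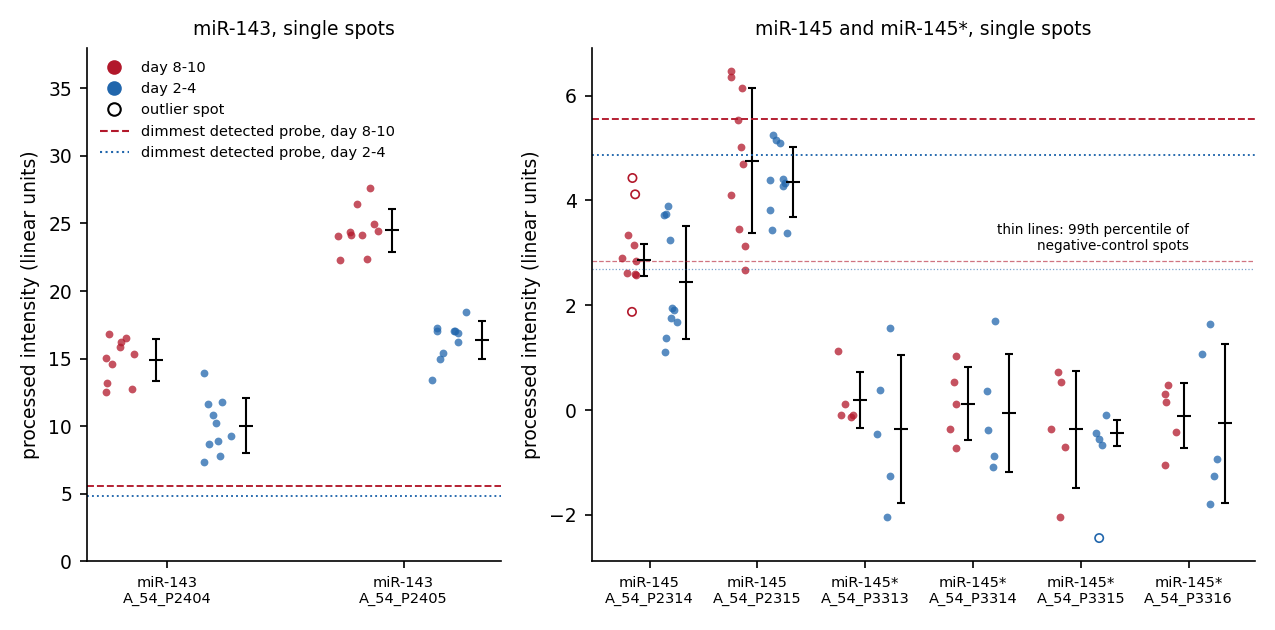
Processed intensity (linear units, not scaled between arrays) of every spot of miR-143 (left) and of miR-145 and miR-145* (right), by probe, with day 8-10 in red left of day 2-4 in blue; open circles are outlier spots left out, black marks are mean and SD over the remaining spots, thick lines the dimmest detected probe of each array and thin lines the 99th percentile of its negative-control spots. miR-143 spots lie between 7.37 and 27.6, above both thick lines, while most miR-145 spots lie below them and miR-145* scatters around 0.

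miR-143 was a modest signal by the standard of these arrays. At day 8-10, 211 of the 327 detected probes were brighter than its shorter probe and 172 were brighter than its longer probe. At day 2-4, 240 of the 308 detected probes were brighter than the shorter probe and 192 were brighter than the longer probe. Probe signals cannot be read as amounts of miRNA, so these ranks say only how far above background the readings sat. The raw signal of the shorter probe averaged 60.2 at day 8-10, over a local background of 43.05, and 55.4 at day 2-4, over 42.9. That of the longer probe averaged 69.9 at day 8-10, over 43.2, and 61.8 at day 2-4, over 43.55. The log2 difference was 0.25 with normexp background correction, which starts from these raw signals and adds an offset of 50. An added constant draws the ratio of dim signals towards equality, and how far it did so here was not tested. The log2 difference was also 0.25 with the 75th percentile of every mouse probe as the scale.

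The scanner software's own summed gene signal for miR-143 was 26.3 (software error 2.17) at day 8-10 and 17.5 (software error 1.61) at day 2-4. It marked miR-143 as detected on both arrays.

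miR-145 lay at the edge of detection. Its shorter probe, A_54_P2314, had used spots from 2.58 to 3.35 in processed intensity at day 8-10, with a median of 2.84, against 1.12 to 3.89 with a median of 1.93 at day 2-4. Its longer probe, A_54_P2315, ran from 2.68 to 6.47 with a median of 4.86 at day 8-10, against 3.38 to 5.26 with a median of 4.36 at day 2-4. The windows overlapped on both probes. Of the 10 spots of the shorter probe at day 8-10, 3 were marked as outliers, with intensities from 1.87 to 4.43, and were left out, while the other miR-145 probes had none.

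The mean of the shorter miR-145 probe was 2.86 ± 0.30 at day 8-10 (SD over 7 spots) and 2.44 ± 1.08 at day 2-4 (SD over 10 spots). For the longer probe the mean was 4.76 ± 1.38 at day 8-10 and 4.35 ± 0.67 at day 2-4 (SD over 10 spots each). On each probe the means of the windows lay closer together than the larger of these SDs. The dimmest probe counted as detected had an intensity of 5.55 at day 8-10 and 4.86 at day 2-4, above all of these means.

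The software's flags for miR-145 pointed in different directions. Only 4 of its 20 spots were flagged well above background at day 8-10, and 1 of 20 at day 2-4, all on the longer probe. A probe was counted as detected where more than 0.5 of its used spots had that flag, so neither probe was. Yet all 20 spots on each array carried the weaker flag for a signal positive and significantly different from background, and the software marked miR-145 as detected on both arrays, with gene signals of 5.08 (software error 1.08) at day 8-10 and 4.49 (software error 1.03) at day 2-4. Of the 401 miRNAs not detected by the rule at day 8-10, 7 had the weaker flag on every spot, miR-145 among them, and at day 2-4 it was 7 of 411.

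Negative-control spots gave a further measure of background. The 672 such spots averaged -0.25 ± 1.26 at day 8-10 and -0.25 ± 1.14 at day 2-4 (SD over spots), with a 99th percentile of 2.84 at day 8-10 and 2.69 at day 2-4. On the longer miR-145 probe, 9 of 10 spots at day 8-10 and 10 of 10 at day 2-4 lay above that percentile of their array. On the shorter probe 3 of 7 used spots did at day 8-10 and 4 of 10 at day 2-4. The miR-145 signal therefore lay above most negative controls in both windows, with its windows overlapping. Every miR-143 spot lay above the 99th percentile of its array. On the shorter miR-143 probe at day 2-4, only 5 of 10 spots lay above the brightest negative-control spot. All 10 did on that probe at day 8-10, and on the longer miR-143 probe in each window.

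miR-145* had 4 probes of 5 spots each. The files place them on chromosome 18 from 61807481 to 61807501 at the longest, 18 bases from the miR-145 entries. Its spots ran from -2.05 to 1.12 at day 8-10 and from -2.44 to 1.70 at day 2-4, none was flagged well above background, 1 of 20 at day 8-10 and 4 of 20 at day 2-4 had the weaker flag, and none of those used passed the 99th percentile of the negative controls. The software gene signal was -0.058 (software error 0.72) at day 8-10 and -0.37 (software error 0.69) at day 2-4, and the miRNA was not marked as detected.

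Among all miRNAs the difference of miR-143 was on the high side without standing apart. Of the 145 miRNAs that both arrays detected, 24 (16.6%) passed 2-fold and 2 spot SE upwards at day 8-10, and 12 (8.28%) did so downwards. With the 75th percentile of every mouse probe as the scale, that split was 10 upwards and 29 downwards. miR-143 was not among them, and miR-145, not detected by the rule on either array, could not be called. The median log2 difference was 0.20, with quartiles of -0.23 and 0.72, so miR-143 lay 0.56 above the median, and 34 miRNAs had a larger value while 110 had a smaller one. The miRNAs nearest to miR-143 in log2 difference, a likeness over 2 arrays only, were let-7g (0.75, spot SE 0.018), miR-324-5p (0.72, spot SE 0.060) and miR-148b (0.81, spot SE 0.11, from 1 probe).

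**Figure D2:**
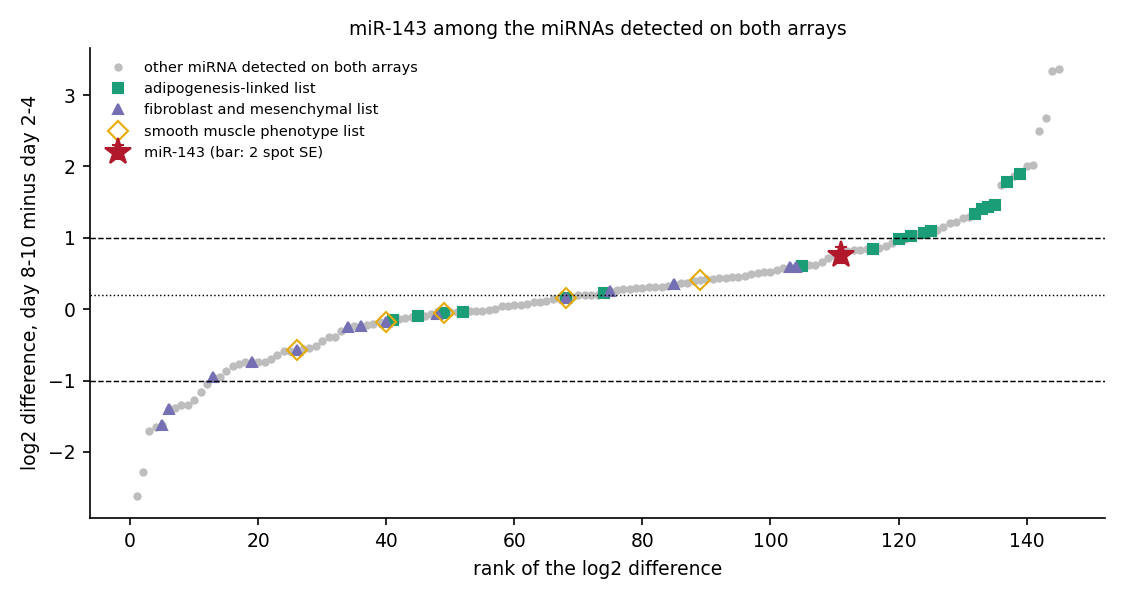
Log2 difference (day 8-10 minus day 2-4) of the 145 miRNAs detected on both arrays, in rising order; the star is miR-143 with a bar of 2 spot SE, coloured symbols are members of the 3 lists (some belong to more than one), dashed lines mark 2-fold and the dotted line the median of 0.20. miR-143, at 0.76, lies below the upper dashed line, above the smooth muscle and mesenchymal symbols and among the adipogenesis symbols.

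Other miRNAs linked to the state of smooth muscle had log2 differences from -0.57 to 0.41. Of the 9 listed, 5 were detected on both arrays, none was 2-fold higher or lower, and their median log2 difference was -0.049, against 0.20 over all 145. Scaled by every mouse probe, the list median was -0.56 against -0.31 over all 145, and 1 member, miR-221, passed 2-fold downwards at -1.08. Scaled by the probes that both arrays detected, miR-221, which favours proliferation of smooth muscle, had -0.57 (spot SE 0.044), miR-100 had -0.17 and miR-26a -0.049. miR-24 had 0.41, turning to -0.10 when scaled by every mouse probe, and miR-21 had 0.16, with the opposite sign under 4 of 13 alternatives. miR-1, miR-133a and miR-133b, which mark striated muscle and are also found in smooth muscle, and miR-222 were not detected in either window. All 5 detected members lay below miR-143. With quantile normalization and with normexp correction, miR-24 lay above it.

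The fibroblast and mesenchymal list, to which the pair would also belong by its known expression, had 14 of its 16 array members detected on both arrays. Of these, 2 were at least 2-fold lower at day 8-10, none was higher, and the median log2 difference was -0.20. Over all 145 miRNAs, 12 (8.28%) were lower, 24 (16.6%) were higher, and the median was 0.20. Scaled by every mouse probe, 5 members were lower (median -0.71), against 29 of all 145 (median -0.31). Scaled by the median of probes detected on both arrays, it was 4 (median -0.47), against 21 of 145 (median -0.065). Without scaling it was 3 (median -0.39), against 15 of 145 (median 0.017). With the software gene signal it was 3 (median -0.47), against 17 of 145 (median 0.0155). With normexp correction it was 1 (median -0.027), against 5 of 145 (median 0.12). miR-214 had -1.63, miR-199a-5p -1.39, miR-199b -0.95 and miR-99a -0.74, all on the opposite side from miR-143. No member exceeded miR-143, the closest being miR-152 at 0.59 and miR-22 at 0.59. Under normexp correction miR-152 and miR-22 did exceed it, and under quantile normalization miR-22 did.

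Among miRNAs that rise in or promote adipogenesis, miR-143 sat in the lower part. Of the 20 listed besides miR-143, 18 were detected on both arrays, 9 of them at least 2-fold higher at day 8-10 and none lower, with a median log2 difference of 1.002. Across all 145 miRNAs the counts were 24 (16.6%) upwards and 12 (8.28%) downwards, with a median of 0.20. Scaled by every mouse probe, 2 of the 18 passed 2-fold upwards (median 0.49), against 10 of all 145 (median -0.31). With normexp correction 2 of the 18 did (median 0.39), against 5 of 145 (median 0.12). The members with the largest differences were miR-148a (1.90), miR-103 (1.78), miR-107 (1.47) and miR-365 (1.43). In all, 11 of the 18 exceeded miR-143, and between 10 and 12 did under each alternative. Scalings by a constant factor per array could not change that count. The lists share members (miR-21, miR-26a, miR-100, miR-221 and miR-222) and were chosen with results of these arrays known, so their counts describe these arrays only.

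Marker miRNAs of other cell types are given as a description, and the source of the vesicles was not tested. Of all 567 mouse miRNAs, 166 were detected at day 8-10, 156 at day 2-4 and 390 in neither window. None of the 7 striated muscle markers and neither of the 2 endothelial markers was detected in either window. Their summed software gene signals were 2.56 at day 8-10 and 1.65 at day 2-4 for muscle, and 2.63 at day 8-10 and 2.42 at day 2-4 for endothelium. Negative members lower these sums: the muscle marker miR-206 alone, named after its values were seen, had a gene signal of 4.82 at day 8-10 and 4.10 at day 2-4, near that of miR-145. Of the 7 blood and serum markers, 4 were detected at day 8-10 and 3 at day 2-4, with summed signals of 921 at day 8-10 and 1002 at day 2-4. Most of each sum was 1 member, miR-451, named after its values were seen, with 885 at day 8-10 and 970 at day 2-4. The 3 blood and serum markers detected on both arrays had log2 differences from -0.23 to 0.051. Of the 6 epithelial markers, 1 (miR-205) was detected at day 8-10 and none at day 2-4, with summed signals of 21.4 at day 8-10 and 1.21 at day 2-4. The part of serum or other cells in the miR-143 signal was not tested.

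Some control probes also differed between the arrays. The corner probe miRNABrightCorner30 averaged 72.2 ± 11.9 at day 8-10 and 18.5 ± 4.94 at day 2-4 (SD over 10 spots each). The control probes hur_1, hur_2, hur_4 and hur_6 were 4.25-fold to 9.89-fold brighter at day 8-10, while mr_1 was at 0.776 times its day 2-4 signal. What these probes detect was not stated in those sources, and their part in the difference of miR-143 was not tested.

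**Figure D3:**
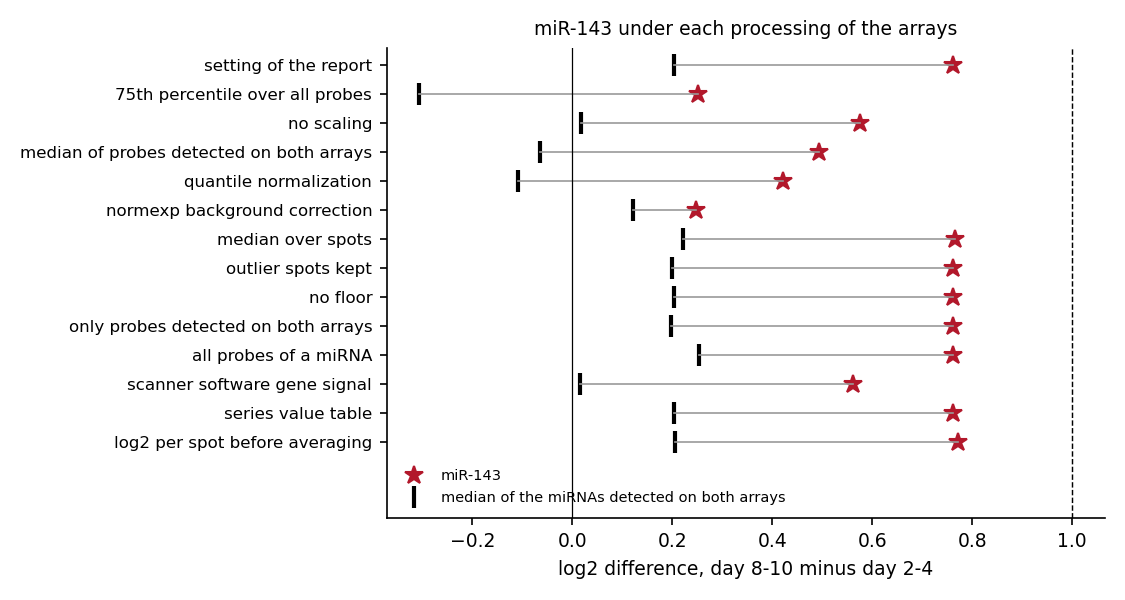
Log2 difference of miR-143 (star) and median log2 difference of the 145 miRNAs detected on both arrays (bar) under the setting of the report and each alternative; the dashed line marks 2-fold. miR-143 stays between 0.25 and 0.77 and to the right of the median each time. The gap is narrowest, at 0.13, under normexp correction, whose offset of 50 narrows differences between dim signals. Scalings by a constant factor per array shift star and bar alike, so the gap could not change under them.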

How the data were processed

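Total RNA (100 ng) from vesicles of each window was labelled with Cy3, per the labels' protocols. The authors deposited spot intensity on a linear scale, with no normalization between arrays. The file headers attribute it to Agilent Feature Extraction, with 9.5.3.1 as the version of grid placement. The deposited p-value of each spot against background was not used. The series value table held the same intensity for 12493 of 12493 spots per array (relative tolerance 1e-06).

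Control and outlier spots were left out and spots averaged per probe. Means were scaled to the array's 75th percentile over probes detected on both arrays, set no lower than the dimmest detected probe and log2 transformed. Probes detected on at least 1 array were averaged into a miRNA value. A miRNA was called when detected on both arrays, at least 2-fold apart and beyond 2 spot SE. Alternatives changed scaling, background correction (normexp in limma 3.58.1, offset 50), averaging, floor and probes in use. The calculation was tested on simulated data with planted changes larger than 2-fold, which does not bear on a difference as small as that of miR-143. Named miRNAs were the pair, miR-145*, the 3 nearest in log2 difference, all detected smooth muscle members and, from each other list, up to 4 members with the largest differences, plus members that exceeded or came closest to miR-143, named after their values were seen. Members and lists were chosen with earlier results of these data known.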

Additional observations from a re-analysis of the deposited data

How the results depend on the processing

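The log2 difference of miR-143 was positive and under 1 in all 13 alternatives, from 0.25 to 0.77. In 7 it moved by no more than 2 spot SE. Several of these could not move it and gave 0.76 again: keeping outlier spots, no floor, either other choice of probes, and the series value table. miR-143 had no outlier spots, lay above the floor and had both probes detected on both arrays, and that table held the same intensities. Among the 7, only the median over spots and log2 per spot could have moved it. The log2 difference of miR-143 was 0.25 with the 75th percentile over all probes, 0.57 without scaling and 0.49 with the median of probes detected on both arrays. It was 0.42 with quantile normalization, 0.25 with normexp correction and 0.56 with the software gene signal. The scalings shift all miRNAs. Among the alternative scalings the median of all ran from -0.31 with the percentile over all probes to 0.017 without scaling. It was 0.20 in the setting of the report, and 0.25 with all probes of a miRNA, where the scaling was unchanged. Relative to the median of its setting, miR-143 lay at 0.13 with normexp correction, whose offset of 50 narrows differences between dim signals. In the other alternatives miR-143 lay 0.51 to 0.57 above that median. It ranked between 30 and 40 of 145. Scalings by a constant factor per array could not change the gap of 0.56 or the rank of 35. The count of higher miRNAs, 24, became 10 with the percentile over all probes and 5 with normexp correction. The count of lower miRNAs, 12, became 29, 21 and 5 with the percentile over all probes, the median scaling and normexp correction. The causes were not tested. Taking log2 per spot before averaging, an alternative chosen after seeing the data, gave 0.77 for miR-143, 23 higher and 11 lower. For miR-145, and for the gap between the pair, no alternative was computed, because its probes were not detected on either array. No paired analysis was possible because each window had 1 array, and for the same reason no array could be left out.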
